A study of Homo sapiens with 6 samples.

Results

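The genes described here are 10 transcription factors and feedback genes of the integrated stress response: ATF4, ATF3, ATF5, DDIT3 (which encodes CHOP), DDIT4, TRIB3, CHAC1, SESN2, CEBPB and CEBPG. They were taken by symbol from a table of 24976 symbols, after the rows that share a symbol had been summed, and all 10 passed the filter on low counts. The libraries come from LN229, an established human glioblastoma line kept in DMEM with fetal bovine serum. In 3 libraries GDH1 (gene symbol GLUD1), the mitochondrial glutamate dehydrogenase, had been knocked down with small interfering RNA (siRNA) delivered by lipofectamine 3000, and cells were collected after 24 h. The other 3 are labelled wild type and titled NC, and share the line, the medium and the harvest time. The protocol names an NC mixture added to dishes in the same way as the siRNA mixture, without saying what NC stands for. Whether 1 or several siRNA sequences were used is not stated. Each culture holds 1 cell line, so the values describe that line.

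In the integrated stress response, kinases that sense missing amino acids, unfolded protein in the endoplasmic reticulum, double-stranded RNA or mitochondrial damage phosphorylate the translation factor eIF2alpha. General translation falls while the ATF4 mRNA is translated more, so the level of that mRNA does not measure the ATF4 protein. ATF4 is a basic leucine zipper (bZIP) factor that pairs with C/EBP factors and raises genes of amino acid supply, together with DDIT3, TRIB3, CHAC1 and SESN2. Some of these act back on the pathway: TRIB3 restrains ATF4 and CHOP, and SESN2 and DDIT4 restrain the growth kinase complex mTORC1.

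GLUD1 checked the labels. Its level in CPM (counts relative to the library total as scaled by TMM, a trimmed mean of ratios) was 88.3, 85.5 and 85.7 in the controls and 20.9, 26.2 and 26.7 in the knockdown, each series of 3 values here and below being replicates 1 to 3, so that 28.4% of the control mean was left. Library totals were 31201100 to 35619614 counts. Of 15638 tested symbols, 2037 were called higher and 2048 lower in the knockdown (adjusted p under 0.05), and the median log2 fold change over all of them was -0.0033. The knockdown libraries also differed from the controls along transcript GC content. Of 5 bins by GC content, over symbols with a mean log2 CPM of at least 3, the lowest stood above the highest by 0.05, 0.46 and 0.75 (log2, against the control mean) in knockdown replicates 1 to 3, and by -0.12, 0.14 and -0.03 in control replicates 1 to 3. Values refitted with an offset for GC content and transcript length are therefore given beside those members that it moved.

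Most of the regulators fell and a single one rose. Of the 10 members, 7 were called lower (CHAC1, TRIB3, SESN2, CEBPB, DDIT4, ATF4 and CEBPG), against 13.1% of all tested symbols. One, ATF3, was called higher, against 13.0% of all tested symbols, and DDIT3 and ATF5 did not pass. For 8 members the 2 groups of libraries were free of overlap, as they were for 42.0% of all tested symbols. The members' median log2 fold change was -0.33. With 1 library left out, the 7 lower calls became 4 without control replicate 3 or knockdown replicate 2, where ATF4, DDIT4 and CEBPG lost theirs. They became 5 without control replicate 1 or 2, where DDIT4 and CEBPG did. Calls over the whole table, in both directions, dropped in the same fits, from 4085 with all libraries. They were 2230 without control replicate 3, 2325 without knockdown replicate 2, 2216 without control replicate 1 and 2934 without control replicate 2.

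**Figure D1:**
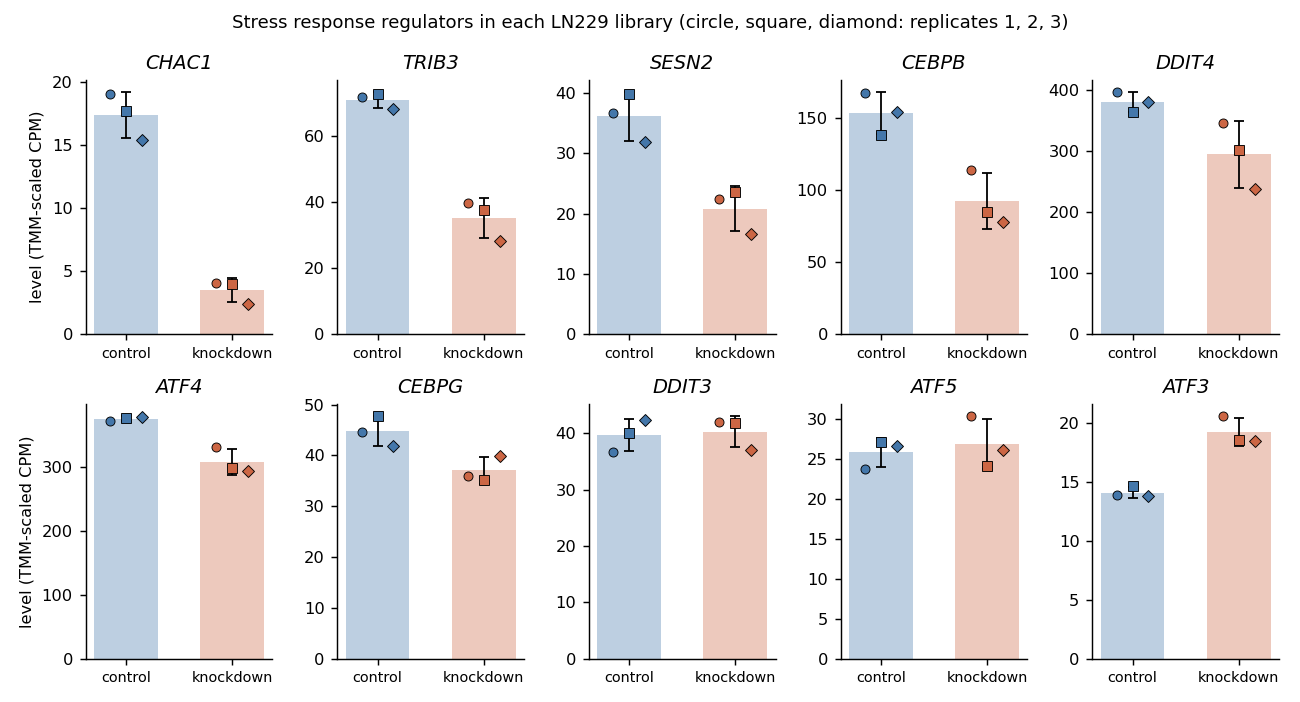
Level of each regulator (TMM-scaled CPM, axis from 0) in the 3 control and 3 knockdown libraries, ordered by fold change, with bars for means, error bars for SD and points for libraries. The knockdown libraries of CHAC1 lie between 2.43 and 4.10 CPM and its controls between 15.4 and 19.0, while the groups overlap for DDIT3 and ATF5.

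CHAC1, on chromosome 15 (40953471 to 40956512, GRCh38.p14), encodes an enzyme that degrades glutathione and is a classical target downstream of ATF4. Its counts were 656, 556 and 506 in the controls against 143, 135 and 85 in the knockdown, which is 19.0, 17.7 and 15.4 CPM against 4.10, 4.03 and 2.43. Every knockdown library was far below every control, and knockdown replicate 3 was the lowest. The mean fell 4.93-fold, a log2 fold change of -2.30 (SE 0.19, edgeR adjusted p = 7.07e-06). Only 0.147% of all tested symbols had a lower fold change. Its close relative CHAC2, which acts on glutathione more slowly, was at 10.3 ± 0.442 CPM without and 11.2 ± 1.52 CPM with the knockdown (mean ± SD, n = 3 each, log2 fold change 0.12, edgeR adjusted p = 0.55).

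The promoter windows of the members (RefSeq, GRCh38.p14, 250 bases before to 50 after an annotated start, 19 windows for the 10 genes) were searched on both strands for the C/EBP-ATF response element, the composite site at which ATF4 pairs with C/EBP factors. Its core was written as TGATGNAA, which includes TGATGCAA. The sequences that held it are shown because they belong to members that fell (CHAC1 and CEBPG) and to the member that rose (ATF3). The stretches lie before the start, 5′ to 3′ on the strand of the gene, at chr15:40953221-40953329, chr19:33374011-33374112 and chr1:212565157-212565283, all on the plus strand, with the match in capitals. The matches begin 209, 42 and 191 bases before the annotated start of their window.
CHAC1: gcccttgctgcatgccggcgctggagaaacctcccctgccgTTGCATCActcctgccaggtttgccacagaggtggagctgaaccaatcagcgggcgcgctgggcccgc
CEBPG: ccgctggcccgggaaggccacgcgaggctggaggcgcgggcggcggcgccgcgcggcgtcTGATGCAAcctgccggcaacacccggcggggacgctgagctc
ATF3: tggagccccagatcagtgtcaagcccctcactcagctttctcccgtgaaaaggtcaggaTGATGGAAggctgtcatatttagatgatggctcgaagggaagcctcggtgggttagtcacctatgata
The E-box, CACGTG, at which many other factors bind, was in 7.26% of windows and 8.775% of symbols and, of the 10 members, in 1 (ATF4). In CHAC1 the match is on the opposite strand, so its capitals are the reverse complement. The form TGATGCAA was in 0.866% of all 35116 windows and TGATGNAA in 3.62%. By symbol these shares were 1.08% and 4.46%, and 2 and 3 of the 10 members had a match. The members had more windows per gene (19 for 10 genes) than all symbols (35116 for 27305), and so more places for a match. The CEBPG and ATF3 genes have further windows at other starts without one. The counts do not show which start was used, and a match is a description of the letters in these windows.

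TRIB3, a pseudokinase gene on chromosome 20 (380760 to 397559) induced by ATF4 with CHOP, had 71.8, 72.9 and 68.2 CPM in the controls and 39.8, 37.7 and 28.3 in the knockdown. The groups were well apart, with knockdown replicate 3 again the lowest. The level fell to 49.7% of the control mean (log2 fold change -1.01, SE 0.12, edgeR adjusted p = 1.04e-04). The related pseudokinase genes fell too: TRIB1, whose product helps to degrade C/EBP factors, went from 89.1 ± 2.72 to 43.3 ± 1.14 CPM (n = 3 each, log2 fold change -1.04, edgeR adjusted p = 2.49e-06). TRIB2 moved little, from 444.9 ± 2.46 to 388.6 ± 10.5 CPM (-0.20, adjusted p = 0.032), and lost its call without any 1 control or without knockdown replicate 2.

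SESN2 on chromosome 1 (28259518 to 28282491) encodes sestrin 2, a leucine sensor that holds back mTORC1. It had 36.7, 39.9 and 31.8 CPM in the controls and 22.5, 23.5 and 16.6 in the knockdown. The lowest control stayed above the highest knockdown library, and the log2 fold change was -0.79 (SE 0.13, edgeR adjusted p = 0.00155). The table lists SESN2 in 2 rows, and how reads were divided between them is not known: the first held 567, 528 and 424 counts in the controls and 371, 330 and 273 in the knockdown, and the other held 700, 726 and 621 against 412, 459 and 308. Both rows were lower in every knockdown library. The paralogues SESN1 (log2 fold change 0.29, SE 0.13) and SESN3 (-0.07, SE 0.12) did not pass the test (edgeR adjusted p = 0.11 and 0.71), but SESN3 was called lower with the GC and length offset (-0.20, adjusted p = 0.018).

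DDIT4 on chromosome 10 (72273924 to 72276036) encodes REDD1, an mTORC1 inhibitor that many stresses raise, low oxygen and glucocorticoids among them. Its levels were 397.4, 364.4 and 380.5 CPM in the controls and 346.6, 301.6 and 237.6 in the knockdown. The 3 knockdown libraries were spread widely below the controls, from just under the lowest control to well below it. The log2 fold change of -0.37 (SE 0.11) was called at an adjusted p of 0.037 in edgeR, and the call was lost without control replicate 1, 2 or 3 (adjusted p = 0.12, 0.061 and 0.099) or knockdown replicate 2 (0.085). Without knockdown replicate 3 the log2 fold change was -0.23 (adjusted p = 0.036). DDIT4L, a related mTORC1 inhibitor gene, was near the limit of detection at 0.352 ± 0.262 CPM without and 0.949 ± 0.104 CPM with the knockdown (n = 3 each, edgeR adjusted p = 0.058).

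Among the transcription factors, ATF4 itself, on chromosome 22 (39520559 to 39522686), had 371.1, 376.0 and 378.2 CPM in the controls and 330.7, 298.6 and 293.1 in the knockdown. The controls lay close together and all 3 knockdown libraries were below them. The level was 82.0% of the control mean, a log2 fold change of -0.29 (SE 0.07, edgeR adjusted p = 0.0090). The adjusted p was 0.054 without control replicate 3 and 0.062 without knockdown replicate 2.

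CEBPB and CEBPG encode C/EBP beta and gamma, bZIP partners of ATF4, of which C/EBP gamma lacks an activation domain of its own. CEBPB on chromosome 20 (50190583 to 50192690) had 167.7, 138.4 and 154.4 CPM in the controls and 114.3, 85.1 and 78.1 in the knockdown. All 3 knockdown libraries were below the lowest control, with knockdown replicate 1 nearest to it. The log2 fold change was -0.73 (SE 0.13, edgeR adjusted p = 0.0027), and -0.36 with the GC and length offset. CEBPG on chromosome 19 (33373709 to 33382686) had 44.7, 47.7 and 41.8 CPM against 36.1, 35.1 and 40.0. It came nearest to its controls in knockdown replicate 3, the library in which most other members were lowest. Its log2 fold change of -0.27 (SE 0.09, edgeR adjusted p = 0.043) was not called without control replicate 1, 2 or 3 (adjusted p = 0.13, 0.17 and 0.076), without knockdown replicate 2 (0.17) or with upper quartile scaling (0.0517). Of the other C/EBP genes, CEBPA was low and fell from 1.14 ± 0.0635 to 0.474 ± 0.0898 CPM (n = 3 each, log2 fold change -1.25, edgeR adjusted p = 0.024), a call lost with the GC and length offset (-0.90, adjusted p = 0.088) and when any 1 library but knockdown replicate 1 was left out. CEBPD stood at 8.83 ± 0.773 and 9.04 ± 2.01 CPM and did not pass (0.03, adjusted p = 0.91), but was called higher with the GC and length offset (0.52, adjusted p = 0.0038).

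ATF3, a bZIP factor that acts mostly as a repressor and is induced by stress and by growth signals, was the riser, and its first promoter window holds the TGATGGAA shown above. On chromosome 1 (212565407 to 212620777), it had 479, 460 and 453 counts in the controls and 717, 622 and 647 in the knockdown, or 13.9, 14.6 and 13.8 CPM against 20.6, 18.6 and 18.5. Every knockdown library was above every control. The rise was 1.36-fold (log2 fold change 0.45, SE 0.10, edgeR adjusted p = 0.0077), and the call held with any 1 library left out (adjusted p from 0.00699 to 0.0431). With the GC and length offset the log2 fold change was 0.44. JDP2, which encodes the close relative of ATF3, went the other way, from 6.50 ± 0.640 to 2.06 ± 0.521 CPM (n = 3 each, log2 fold change -1.66, SE 0.21, edgeR adjusted p = 2.45e-04).

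DDIT3 and ATF5 did not pass. DDIT3 on chromosome 12 (57516588 to 57520517), the CHOP gene, had 36.8, 40.0 and 42.3 CPM in the controls and 41.9, 41.8 and 37.1 in the knockdown. These ranges lie on top of each other, and the log2 fold change was 0.02 with a 95% interval of -0.18 to 0.22 (edgeR adjusted p = 0.89). ATF5 on chromosome 19 (49928906 to 49933935), a relative of ATF4 that is also controlled at translation, had 23.8, 27.1 and 26.6 CPM against 30.3, 24.1 and 26.1. Knockdown replicate 1 was above the controls and the other knockdown libraries were among them. Its log2 fold change was 0.06 (95% interval -0.18 to 0.29, edgeR adjusted p = 0.74). With the GC and length offset it was called higher (0.25, adjusted p = 0.034).

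**Figure D2:**
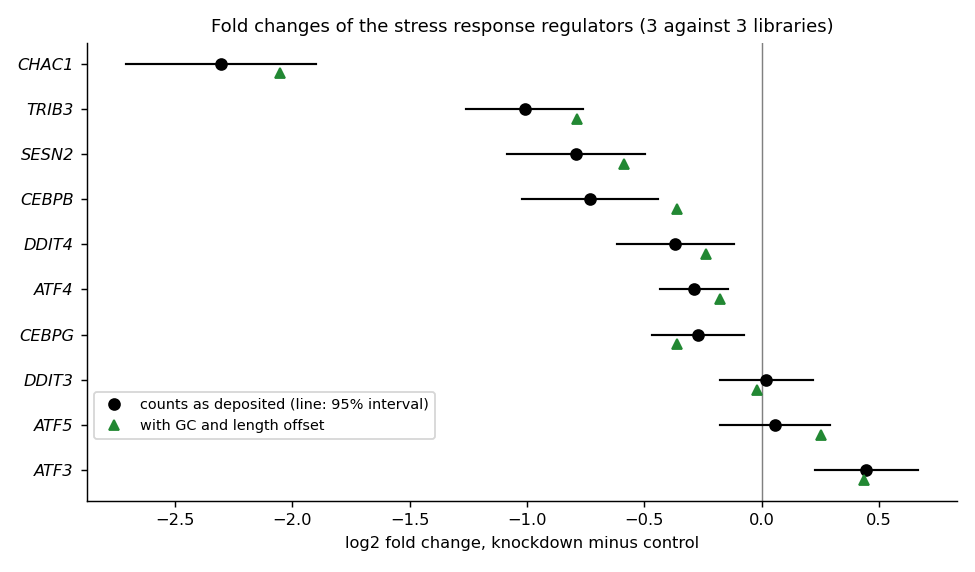
Log2 fold change (knockdown minus control, 3 libraries against 3) of each regulator, as points with 95% intervals from the fit on the deposited counts and as triangles from the fit with the GC and length offset. CHAC1 lies at -2.30 and ATF3 at 0.45, and the offset moved CEBPB from -0.73 to -0.36 and ATF5 from 0.06 to 0.25.

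The GC and length offset kept all 7 lower calls and the 1 higher call, and added ATF5. The fit with the offset also called more symbols in the whole table, 5417 against 4085 without it. The longest reference transcripts of the members ranged from 43.9% GC in CEBPG to 66.2% in CEBPB, with 62.6% in CHAC1 and 60.9% in TRIB3. With the offset, the log2 fold change was -2.05 for CHAC1, -0.79 for TRIB3, -0.59 for SESN2, -0.24 for DDIT4 and -0.18 for ATF4, all smaller falls than without it, while CEBPG went to -0.36. After the offset the 3 knockdown libraries of CEBPB were at -0.32, -0.44 and -0.32 relative to the control mean (log2). Before it they had been at -0.43, -0.85 and -0.97, so the libraries drew together.

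The order of the knockdown libraries was similar for most members, and it changed with the offset. Knockdown replicate 3 was the lowest of the 3 for 8 of the 10 members, and knockdown replicate 1 was the highest for 8. How many of all tested symbols share that order, with or without the offset, was not computed, so these counts describe the members only. Knockdown replicate 3 was also the library with the largest GC difference given above. CHAC1 was at -2.08, -2.11 and -2.84 (log2, against the control mean) in knockdown replicates 1 to 3, DDIT4 at -0.14, -0.34 and -0.68, and TRIB3 at -0.84, -0.91 and -1.33. GLUD1 did not follow that order: it was lowest in knockdown replicate 1 (-2.05, against -1.73 and -1.70). With the offset, knockdown replicate 3 was the lowest for 5 members in place of 8 (CHAC1, TRIB3, SESN2, DDIT4 and DDIT3), knockdown replicate 2 was the lowest for the other 5, and knockdown replicate 1 was the highest for 4. CHAC1 was then at -2.02, -1.80 and -2.32 and TRIB3 at -0.80, -0.66 and -0.90. ATF4 (-0.20, -0.21 and -0.13), CEBPB and ATF5 were highest in knockdown replicate 3.

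Setting each gene against ATF4 inside the same library does not depend on how libraries were scaled. CHAC1 counts were 5.12%, 4.70% and 4.07% of the ATF4 counts in the controls and 1.24%, 1.35% and 0.830% in the knockdown. TRIB3 was at 19.4%, 19.4% and 18.0% against 12.02%, 12.6% and 9.66%, and SESN2 at 9.90%, 10.6% and 8.42% against 6.80%, 7.88% and 5.67%. CHAC1, TRIB3, SESN2 and CEBPB were thus lower relative to ATF4 in every knockdown library than in any control, with mean differences of -2.05, -0.74, -0.51 and -0.46 (log2 ratio). DDIT3 was higher relative to ATF4, at 9.90%, 10.6% and 11.2% in the controls and 12.7%, 13.99% and 12.65% in the knockdown. ATF3 (difference of 0.73) and ATF5 (0.34) were also higher relative to ATF4, without overlap. DDIT3 and ATF5 themselves had log2 fold changes of 0.02 and 0.06 without the offset and were not called, while ATF4 stood at -0.29. Their higher ratios thus hold mostly the lower ATF4 counts. For the 7 genes without overlap the two-sided exact permutation p was 0.1, the smallest that 3 libraries against 3 allow, or 0.13 after Benjamini-Hochberg adjustment over the 9 ratios. The ATF4 levels were themselves free of overlap between the groups, so genes that did not change can also come out apart. The count of 7 has no share over all tested symbols beside it. The ratios of DDIT4 (-0.09, exact permutation p = 0.7) and CEBPG (0.02, exact permutation p = 1.0) overlapped between the groups.

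The ratios to ATF4 do carry the GC difference, and with the offset in both genes, an alternative chosen after seeing the data, 6 of the 9 were free of overlap. The share of all tested symbols whose ratio to ATF4 was free of overlap, with or without the offset, was not computed. These counts therefore describe the members only and do not set them apart from other genes. CHAC1 (-1.87), TRIB3 (-0.61) and CEBPB (-0.18) were still lower relative to ATF4 in every knockdown library, and ATF3 (0.61) and ATF5 (0.43) higher. DDIT3 went from 0.31 to 0.16, with knockdown values of 0.23, 0.23 and 0.02 against controls of -0.04, -0.03 and 0.06, so that the groups overlapped. SESN2 (-0.41) overlapped by a small margin, with -0.17 in knockdown replicate 2 and -0.19 in control replicate 3. CEBPG, which had overlapped, was lower in every knockdown library (-0.18), and DDIT4 overlapped again (-0.06).

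**Figure D3:**
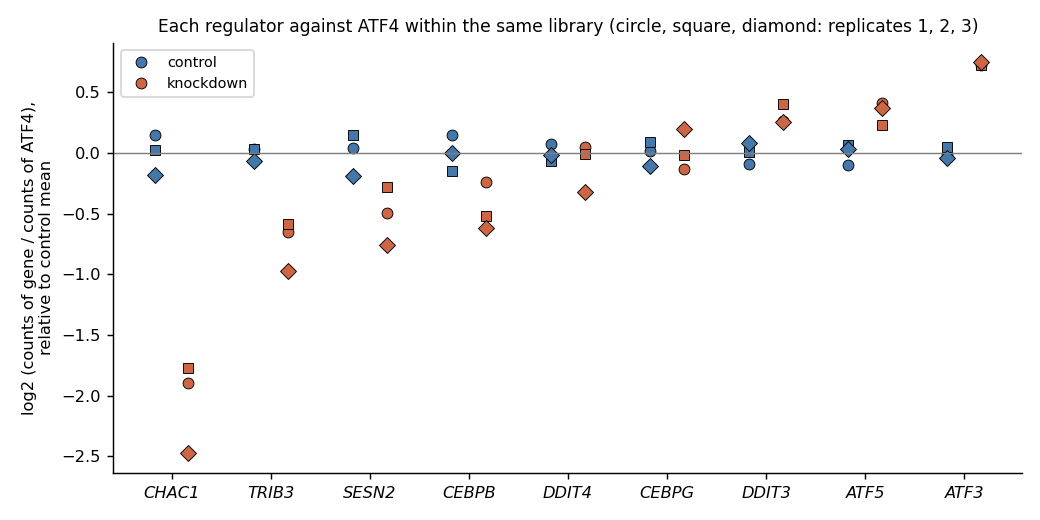
Log2 ratio of each regulator's counts to the ATF4 counts of the same library, relative to the control mean, with 1 point per library and no offset. The knockdown libraries lie below the controls for CHAC1, TRIB3, SESN2 and CEBPB, above them for DDIT3, ATF5 and ATF3, and overlap with them for DDIT4 and CEBPG.

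Levels per length (RPKM, from CPM and the longest reference transcript) spanned a wide range. In the controls the order was DDIT4 (217.8 ± 9.42), ATF4 (185.8 ± 1.80), CEBPB (78.5 ± 7.5), DDIT3 (37.2 ± 2.60), TRIB3 (28.4 ± 0.969), ATF5 (12.5 ± 0.867), CEBPG (10.9 ± 0.714), SESN2 (10.5 ± 1.18), CHAC1 (9.39 ± 0.986) and ATF3 (6.94 ± 0.226; mean ± SD, n = 3). ATF5 and CEBPG, CEBPG and SESN2, and SESN2 and CHAC1 overlapped, while the other neighbours did not. In the knockdown, CHAC1 became the lowest (1.90 ± 0.511 RPKM) and ATF3 moved up beside CEBPG (9.45 ± 0.581 and 9.02 ± 0.625). DDIT4 and ATF4 overlapped there (168.9 ± 31.4 and 152.3 ± 10.1), as did TRIB3 and ATF5 (14.1 ± 2.44 and 13.0 ± 1.53). The order rests on the length chosen: with the median transcript length TRIB3 stood above DDIT3 in the controls, and ATF3 above CHAC1, CEBPG and SESN2.

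**Figure D4:**
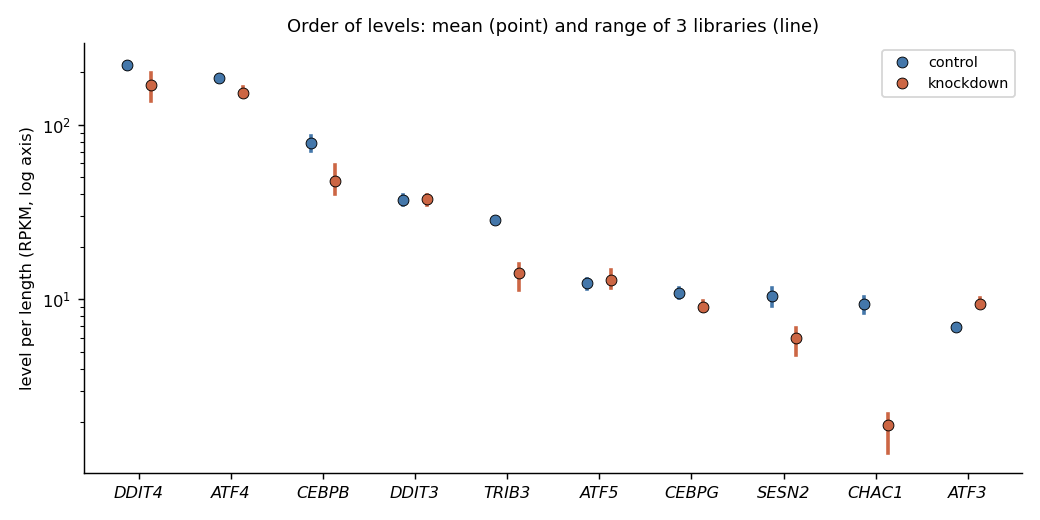
Level per length (RPKM, log axis) of each regulator in controls and knockdown, ordered by the control mean, with points for means and lines for the range of 3 libraries. DDIT4 and ATF4 are the most abundant in both groups, and CHAC1 goes from 9.39 to 1.90 RPKM while ATF3 goes from 6.94 to 9.45.

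The rest of the pathway was described by lists fixed with earlier results of these data known. Their counts over all 6 libraries without the offset compare with 13.1% of tested symbols lower and 13.0% higher. Counts from other fits have other backgrounds. That fit called 4085 symbols, against 5417 with the GC and length offset and 6236 without knockdown replicate 1. Leaving out any 1 of the other libraries gave 2216 to 3451. The ATF4 targets of amino acid supply were the list with the most falls: 15 of 22 tested were lower and 0 higher (median log2 fold change -0.62). ASNS, which makes asparagine, went from 180.3 ± 18.9 to 72.8 ± 3.63 CPM (log2 fold change -1.31, SE 0.09, edgeR adjusted p = 1.96e-06), MTHFD2, a mitochondrial folate enzyme gene, stood at -1.13 and PHGDH, which encodes the first enzyme of serine synthesis, at -1.04 (log2 fold changes). With 1 library left out, 14 to 16 were lower. The GC and length offset gave 16 lower and 2 higher.

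Other ATF4 and CHOP targets went both ways, with 8 of 17 tested lower, 6 higher and a median of -0.22. GDF15, which encodes a cytokine released under stress, dropped from 232.6 ± 8.84 CPM to 62.1 ± 13.6 CPM (SD, n = 3 each, log2 fold change -1.91, SE 0.13, edgeR adjusted p = 5.44e-06). ADM2, a peptide hormone gene, fell by 1.35 on the log2 scale and EIF4EBP1, a repressor of cap-dependent translation, by 0.68 (-0.31 with the GC and length offset). STC2, a secreted glycoprotein gene, rose by 1.47, ERO1A, whose product drives disulfide formation, by 1.13, and NIBAN1, a stress-responsive gene, by 0.52. The median was the value of INHBE (SE 0.59), a gene with 4 to 15 counts per library. It changed to 0.12 without control replicate 2, and to -0.01 with limma-voom on all 6 libraries. With any 1 library left out, 6 to 8 were lower and 6 or 7 higher.

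Upstream of ATF4, of 8 genes of eIF2alpha kinases and their regulators, EIF2AK4, which encodes the amino acid sensor GCN2, was higher (log2 fold change 0.24, edgeR adjusted p = 0.020) and DELE1, which relays mitochondrial stress, was lower (-0.31, adjusted p = 0.013), and both calls were lost without knockdown replicate 2 or either of control replicates 1 and 3. Without knockdown replicate 1 there were 2 lower and 2 higher. The genes of the kinases PERK, PKR and HRI did not pass. Of 13 genes of eIF2, eIF2B and the eIF2alpha phosphatase, 5 were higher and 2 lower (median 0.09). PPP1R15A, whose product GADD34 directs the phosphatase to eIF2alpha and is itself a stress-induced feedback gene, rose from 71.1 ± 3.83 to 127.2 ± 10.3 (CPM, SD, n = 3 each; log2 fold change 0.84, SE 0.08, edgeR adjusted p = 2.86e-05). Leaving out any 1 library did not end its call, nor that of the catalytic subunit gene PPP1CC (0.33). PPP1CB (0.33) was higher, and EIF2S2 (-0.28) and PPP1R15B (-0.23), the constitutive counterpart of PPP1R15A, were lower. The remaining higher members, named to complete the count, were EIF2S1 (0.29) and EIF2B3 (0.28). With the GC and length offset PPP1CC was at 0.20, PPP1CB at 0.18 and EIF2S1 at 0.15. The last 5 genes lost their calls in 3 or more of the 6 fits with a library left out. The number higher became 2 without knockdown replicate 2 or either of control replicates 1 and 3, and 3 without control replicate 2. The number lower became 0 without knockdown replicate 2 or either of control replicates 2 and 3, and 1 without control replicate 1.

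Among 29 tested other bZIP factors, 5 were higher and 3 lower (median 0.06), with 9 higher under the GC and length offset. FOSL2, an AP-1 subunit gene, went up from 20.0 ± 1.01 to 60.1 ± 5.05 CPM (n = 3 each, log2 fold change 1.59, edgeR adjusted p = 1.07e-06) and NFIL3, a repressor gene, by 1.05 on the log2 scale, while JUND, another AP-1 subunit gene, fell by 0.91 (0.43 with the offset). CREB3L2 (0.33) was higher, and TEF (-0.48) and CREB5 (-0.67) were lower. The other higher members, named to complete the count, were JUN (0.60) and FOSB (0.83), and FOSB lost its call without any 1 library. The CREB5 call was lost without knockdown replicate 3 or either of control replicates 1 and 2, and 5 of the list were lower without knockdown replicate 1. Of the members' close relatives, 4 of 9 tested were lower, the genes TRIB1, JDP2, CEBPA and TRIB2 given above, and 0 higher (median -0.07). Without any 1 control, or without knockdown replicate 2, 2 were lower, and 1 was higher without control replicate 3 or knockdown replicate 1. With the offset 4 were lower, SESN3 in place of CEBPA, and 2 higher, CEBPD and DDIT4L.

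The other arms of the unfolded protein response, which ATF6 and XBP1 drive, had 6 of 21 lower and 3 higher (median -0.03). XBP1 itself went from 111.2 ± 6.35 CPM down to 68.3 ± 1.93 CPM (n = 3 each, log2 fold change -0.70, SE 0.07, edgeR adjusted p = 5.25e-05), ATF6B by 0.49 on the log2 scale and CRELD2, a chaperone-like gene, by 0.56 (0.36 with the offset). SEC24D (0.31), DNAJC3 (0.26, or 0.13 with the offset) and SEL1L (0.25, or 0.13) were higher. Of these 0 stayed called without knockdown replicate 2 or either of control replicates 1 and 3. The number higher was 1 without control replicate 2 or knockdown replicate 3, and 6 without knockdown replicate 1, where 9 were lower. Of 21 mTORC1 genes and upstream regulators, 4 were lower and 2 higher (median -0.05). DEPTOR, an inhibitor of mTOR, fell from 6.10 ± 1.08 to 1.79 ± 0.754 CPM (-1.77, edgeR adjusted p = 0.0011) and the arginine sensor gene CASTOR1 by 0.98. The GTPase gene RRAGC rose by 0.45, RHEB by 0.30, WDR59 was lower (-0.32) and AKT1S1 (-0.42, or -0.20 with the offset), named to complete the count, was the fourth lower member. Without control replicate 1 or 3, 2 were lower and 1 higher, without knockdown replicate 2, 2 were lower, and without knockdown replicate 1, 7 were lower and 4 higher. With the offset 4 were higher and the median was 0.04.

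**Figure D5:**
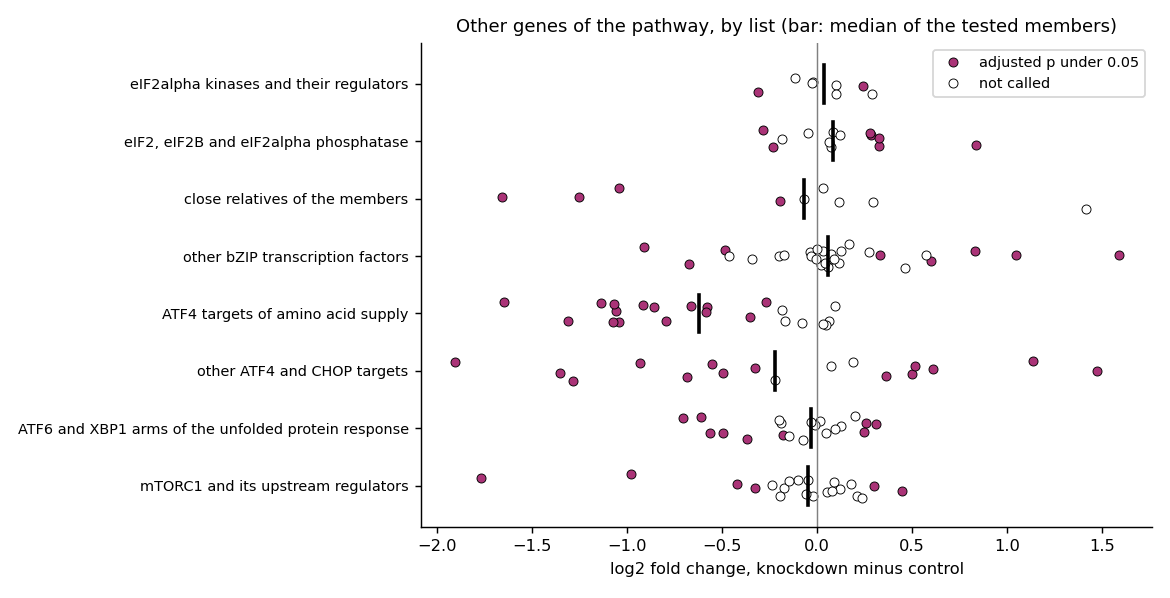
Log2 fold change (knockdown minus control) of every tested member of the 8 lists of the pathway, with filled points for an adjusted p under 0.05 and bars for medians. The ATF4 targets of amino acid supply lie mostly below 0, with a median of -0.62, while the other lists have medians between -0.22 and 0.09.

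By Euclidean distance between the 6 log2 CPM values, each centred on its control mean, the symbols nearest to ATF4 among 10105 candidates were HEBP1 (0.036), GLB1 (0.048) and FBXL18 (0.060). Those nearest to DDIT3 were PANK2 (0.050), TM9SF4 (0.077) and COX17 (0.079), and those nearest to ATF3 were CIT (0.095), MAP2K1 (0.096) and NVL (0.11). The distances are descriptions over 6 libraries.

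The glioma label was checked on 10 glial and glioma markers. The genes VIM, SOX10, CD44, NES and S100B were abundant, while GFAP, a defining astrocyte gene, had 8 to 23 counts per library. SOX9 and OLIG2 were also low, with control means of 2.55 and 9.55 CPM. The summed level of the list was 6864 to 7171 CPM in controls and 6928 to 8082 in the knockdown, and 4 of its genes were higher (CD44, EGFR, SOX2 and VIM) and 3 lower (S100B, OLIG2 and SOX10). Without knockdown replicate 2 or either of control replicates 2 and 3, 2 were higher, and SOX10 went from -0.38 to -0.08 (log2 fold change) with the GC and length offset. Of 5 neuron markers 2 were lower (MAP2 and SNAP25, summed list 159.4 to 169.8 against 93.6 to 116.8 CPM), or 1 without knockdown replicate 2 or any 1 control, where SNAP25 lost its call. Of the 2 leukocyte markers tested CD68, also a lysosomal gene, was higher (summed list 14.3 to 17.5 against 26.9 to 29.7 CPM), and PTPRC, which defines leukocytes, had at most 13 counts. Of the 2 epithelial markers tested KRT8 was lower (summed list 44.1 to 46.3 against 35.6 to 44.8 CPM), but not without control replicate 1, and both were lower without knockdown replicate 1. Of the 2 endothelial markers tested 0 passed (2.32 to 3.23 against 2.002 to 2.55 CPM), and CDH1 and CDH5 were at 0 in every library. The part of these shifts in the values above was not tested, and in bulk RNA fewer cells with a transcript and less of it per cell cannot be told apart.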

How the data were processed

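Total RNA of 6 LN229 cultures (3 control, 3 knockdown) was sequenced. The authors deposited 1 table of whole-number counts for 28196 gene rows. These were taken as not normalized, which whole numbers alone do not prove. The submitters' processing notes name the build GRCh38.p14, while the sources used here give no aligner, counting tool or strand setting. The series design calls the replicates biological. From the deposited counts, rows of a symbol were summed (1634 symbols had several, between which reads may be split), rows of 4956 newly assembled loci were kept, low symbols were removed with filterByExpr, and groups were compared with edgeR 4.0.16 in R 4.3.3 (TMM, robust glmQLFit, glmQLFTest, two-sided, Benjamini-Hochberg over 15638 symbols, threshold 0.05). SE is the log2 fold change over the square root of F, and a prior count of 2 entered log2 CPM (counts relative to scaled library totals). Single genes were also compared with exact permutation tests (scipy 1.17.1).

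Transcript length and GC content came from the longest protein-coding transcript of GENCODE release 29 (84.3% of tested symbols), and the offset was a loess surface (span 0.5) per library, which can also remove real differences that follow GC content. Lengths are of reference transcripts, so RPKM levels are approximate. Promoters came from RefSeq. The members, lists, tests and the rule for naming genes (all members, per list the 3 calls of smallest p in each direction, and the nearest symbols) were chosen with earlier results of these data known, and the ratios to ATF4 and the offset in them and in the library order were chosen after seeing the data. The fit was tested on simulated data. Alternatives were other scalings, filters and thresholds, DESeq2 1.42.0, limma-voom (limma 3.58.1), rows kept apart, a replicate block, the offset, and each library left out.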

Additional observations from a re-analysis of the deposited data

How the results depend on the processing

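The number of tested symbols called was 4085, or 5417 with the GC and length offset. It was 1990 at an adjusted p under 0.01 and 1467 with glmTreat against a 1.2-fold change, and 2216 to 6236 with 1 library left out (2216 when control replicate 1 was left out, 2230 for control replicate 3, 2325 for knockdown replicate 2 and 6236 for knockdown replicate 1). Members called lower were 7, or 4 with glmTreat, and 4 to 7 with 1 library left out. Members called higher were 1, or 2 with the GC and length offset (with or without the replicate block), 0 with glmTreat, and 1 to 1 with 1 library left out. The log2 fold change of DDIT3 changed sign, to -0.0199 with the offset and -0.0201 with offset and block, and ranged from -0.0277 (control replicate 1 left out) to 0.0789 with 1 library left out, being also below 0, at -0.0053 and -0.0075, when knockdown replicate 1 or 2 was left out. That of ATF5 ranged from -0.0353 (knockdown replicate 1 left out) to 0.127. Neither gene was called where its sign changed. The cause was not tested. CHAC1, TRIB3, SESN2, CEBPB and GLUD1 kept direction and call in all 18 alternatives, with CHAC1 from -2.42 to -2.05 and TRIB3 from -1.10 to -0.79. ATF3 lost its call only with glmTreat, ATF4 in 3, DDIT4 in 7 and CEBPG in 8 alternatives. DDIT4 and CEBPG were not called with rows kept apart (adjusted p = 0.060 and 0.059).

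Same-numbered libraries did not all deviate together (correlations across genes of 0.40, 0.11 and -0.11 for numbers 1 to 3, and control replicate 2 was nearest to knockdown replicate 3 at 0.49). Those 2 libraries had the largest GC differences of their groups (0.14 and 0.75), and the correlations were taken without the offset. They therefore cannot show whether the numbers are pairs, and the main fit did not take them as pairs. With the replicate block 4791 symbols, 7 lower members and 1 higher member were called. The members had from 85 counts in a library (CHAC1, knockdown replicate 3) to 13710 (DDIT4, control replicate 1). With 3 libraries per group, changes as small as those of DDIT3 and ATF5 can be missed. Why these genes did not pass was not tested.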
